A study of Mus musculus with 96 samples.

Results

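The respiratory chain and ATP synthase genes were taken by name from a table of 48795 genes: nuclear genes whose symbols begin with Ndufa, Ndufb, Ndufc, Ndufs, Ndufv, Sdha to Sdhd, Uqc, Cox4 to Cox8 or Atp5, and the mitochondrially encoded mt-Nd, mt-Co, mt-Cytb and mt-Atp genes. After 7 rows marked as pseudogenes were left out, 112 genes remained, 99 nuclear and 13 mitochondrial, and the sets were kept apart throughout. They were measured by RNA sequencing in striatum and cerebral cortex of 48 C57BL/6 mice aged 6 months, with 96 libraries, both tissues from every mouse. The 6 genotypes had 8 mice each, with 4 males and 4 females: Q140 (heterozygous knock-in of the Huntington's disease allele of Htt), wild type (WT), Q140 with Msh6+/-, Msh6+/-, Q140 with Msh6-/-, and Msh6-/-. The knock-in allele sits in the germline, so every cell type carries it, and the part of Msh6 that was deleted is not given in the sources used here.

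The respiratory chain passes electrons from NADH (complex I) or succinate (complex II) through coenzyme Q, complex III and cytochrome c to cytochrome c oxidase (complex IV), and ATP synthase (complex V) uses the resulting proton gradient. Most subunits are encoded in the nucleus and imported, whereas a few hydrophobic core subunits of complexes I, III, IV and V are transcribed from mitochondrial DNA, so a complete complex needs both genomes. Striatal projection neurons, the cells most affected in Huntington's disease, are known to be sensitive to inhibitors of complex II. The nuclear members comprised 44 genes for complex I (36 subunits and 8 assembly factors), 8 for complex II (4 and 4), 12 for complex III (8 and 4), 19 for complex IV and 16 for complex V, and the mitochondrial members 7, 1, 3 and 2 genes for complexes I, III, IV and V.

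Nuclear respiratory genes have no common promoter box, but binding sequences of NRF1, of ETS-type factors such as GABP (NRF-2) and of YY1 are known from many of them. RefSeq promoter windows on GRCm38.p6, from 250 bases before to 50 bases after a start, were matched by symbol for 80 of the 99 nuclear members, with 85 windows of 300 bases. An NRF1 core, GCGCANGCG on either strand, stood in 26 of the 85 windows (30.6%), against 6.25% of all 32851 windows. An ETS core, CCGGAAG, stood in 23.5% against 8.86%, and a YY1 core, AANATGGCG, in 12.9% against 2.38%. The windows below belong to the genes with the smallest p among those that rose and fell in Q140 striatum, Atp5g1 and Ndufs3, and to Atp5b and Sdha, which rose in all 3 Q140 genotypes; capitals mark the motif matches.
Atp5g1 (chr11:96075582-96075881, minus strand): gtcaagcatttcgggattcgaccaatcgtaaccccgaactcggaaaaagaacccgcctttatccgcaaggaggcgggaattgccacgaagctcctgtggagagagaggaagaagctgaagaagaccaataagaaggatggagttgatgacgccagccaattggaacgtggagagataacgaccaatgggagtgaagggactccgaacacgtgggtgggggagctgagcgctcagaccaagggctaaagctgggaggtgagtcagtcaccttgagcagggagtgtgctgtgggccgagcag
Ndufs3 (chr2:90904672-90904971, minus strand): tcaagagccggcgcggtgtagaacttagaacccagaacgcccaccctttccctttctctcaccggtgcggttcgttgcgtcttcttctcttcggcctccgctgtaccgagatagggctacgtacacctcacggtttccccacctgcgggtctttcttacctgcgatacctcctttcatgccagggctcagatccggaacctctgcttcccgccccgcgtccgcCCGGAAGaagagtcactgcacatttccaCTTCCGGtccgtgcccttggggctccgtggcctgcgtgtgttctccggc
Atp5b (chr10:128083057-128083356, plus strand): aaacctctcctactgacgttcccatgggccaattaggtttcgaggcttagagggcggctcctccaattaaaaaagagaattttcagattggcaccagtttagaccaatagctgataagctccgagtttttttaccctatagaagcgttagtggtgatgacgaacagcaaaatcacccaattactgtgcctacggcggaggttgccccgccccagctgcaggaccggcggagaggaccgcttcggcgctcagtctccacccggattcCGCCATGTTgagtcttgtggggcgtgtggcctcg
Sdha (chr13:74350191-74350490, minus strand): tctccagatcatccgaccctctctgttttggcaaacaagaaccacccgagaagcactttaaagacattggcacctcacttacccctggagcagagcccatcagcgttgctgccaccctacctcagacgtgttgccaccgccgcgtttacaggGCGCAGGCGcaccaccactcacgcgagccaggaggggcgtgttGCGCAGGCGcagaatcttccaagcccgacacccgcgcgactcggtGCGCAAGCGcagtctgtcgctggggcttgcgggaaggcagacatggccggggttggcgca
The Ndufs3 window held 2 ETS cores, the Sdha window 3 NRF1 cores and the Atp5b window 1 YY1 core. The Atp5g1 window held none of these letters, so these genes shared no motif among those searched.

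Library totals ran between 12.4 and 22.89 M counts. Tissue identity followed the labels: all 10 markers of striatal projection neurons were higher in striatum (median log2 fold change 5.41) and all 7 of cortical glutamatergic neurons were lower (median -8.15). Msh6 mRNA was lower in Msh6-/- than in WT mice by a log2 fold change of -1.10 in striatum and -1.14 in cortex, and in Msh6+/- by -0.33 and -0.46. Htt mRNA was lower in Q140 carriers by -0.12 ± 0.020 in striatum and -0.099 ± 0.018 in cortex. One striatal library, Q140 Msh6-/- mouse 21-3, stood apart in choroid plexus genes, whose summed level was 2795 CPM against a group median of 43.3 CPM. Bulk tissue was measured, so fewer cells of a type and less RNA per cell cannot be told apart.

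On the length-scaled FPKM scale the mitochondrial mRNAs lay far above the nuclear ones. The highest was mt-Co1, the catalytic core of cytochrome c oxidase, with 12440 ± 578 FPKM in striatum and 9101 ± 645 FPKM in cortex (SD, n = 48 each). It was followed by mt-Cytb (8723 FPKM in striatum) and mt-Nd1 (7213 FPKM), and the lowest was mt-Nd6, the only member on the light strand, with 128.5 ± 26.5 FPKM in striatum and 90.7 ± 21.5 FPKM in cortex. The nuclear members were headed by the small cytochrome c oxidase subunit Cox8a, with 322.8 ± 21.9 FPKM in striatum and 445.5 ± 29.8 FPKM in cortex. Next came Cox6a1, the ATP synthase catalytic-head subunits Atp5a1 and Atp5b, and Cox4i1, between 181 and 256 FPKM in striatum. The isoforms best known from other organs were low here: Cox4i2 3.08 FPKM, Cox6a2 4.78 FPKM, Cox7a1 0.816 FPKM, Cox6b2 1.38 FPKM, Cox8b 0.488 FPKM and Cox7b2 0.485 FPKM in striatum. Cox8c was listed at 0 in all 48 striatal and in 47 of 48 cortical libraries. Of the 3 genes that encode one and the same mature c subunit of the ATP synthase rotor, Atp5g3 had 69.3 FPKM in striatum, Atp5g1 7.79 FPKM and Atp5g2 2.16 FPKM. mt-Nd4, mt-Nd4l, mt-Co2, mt-Co3, mt-Atp6 and Atp5g2 have stretches of 100% identity in other genes. Reads may be shared with these copies or left uncounted, which limits any ranking of levels.

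In Q140 striatum, nuclear respiratory genes rose more often than they fell, and mitochondrial ones changed little or fell. With the Q140 effect averaged over the 3 Msh6 genotypes, 40 of the 96 nuclear members tested rose and 10 fell (edgeR, adjusted p under 0.05), against 29.1% of all genes higher and 23.6% lower. Their median log2 fold change was 0.040, against 0.015 over all 17503 genes tested. Changes were small, and no nuclear member that was called moved by more than 0.31 on the log2 scale. The 3 genotype pairs, which share no mouse, gave 19 nuclear members higher and 5 lower in Q140 against WT (all genes 15.5% and 14.2%). In Q140 Msh6+/- against Msh6+/-, 25 rose and 1 fell (16.3% and 14.9%). In Q140 Msh6-/- against Msh6-/-, 11 rose and 7 fell, both below the shares of all genes (17.8% and 15.2%). On FPKM, limma called 48 higher and 1 lower, 58 higher and 1 lower, and 41 higher and 1 lower in these pairs, and without a filter on low counts edgeR called 5 higher in the Msh6-/- pair. The shares of all genes above belong to the main edgeR fit and cannot be set against these other counts. In all 3 pairs 8 nuclear members rose: Atp5g1, Atp5b, Ndufc2, Ndufb5, Cox7b, Sdha, Uqcrh and Uqcc1, which is 8.33% of those tested against 9.34% of all genes. In all 3 pairs 1 nuclear member fell, Ndufs3, or 1.04% against 9.88% of all genes.

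**Figure D1:**
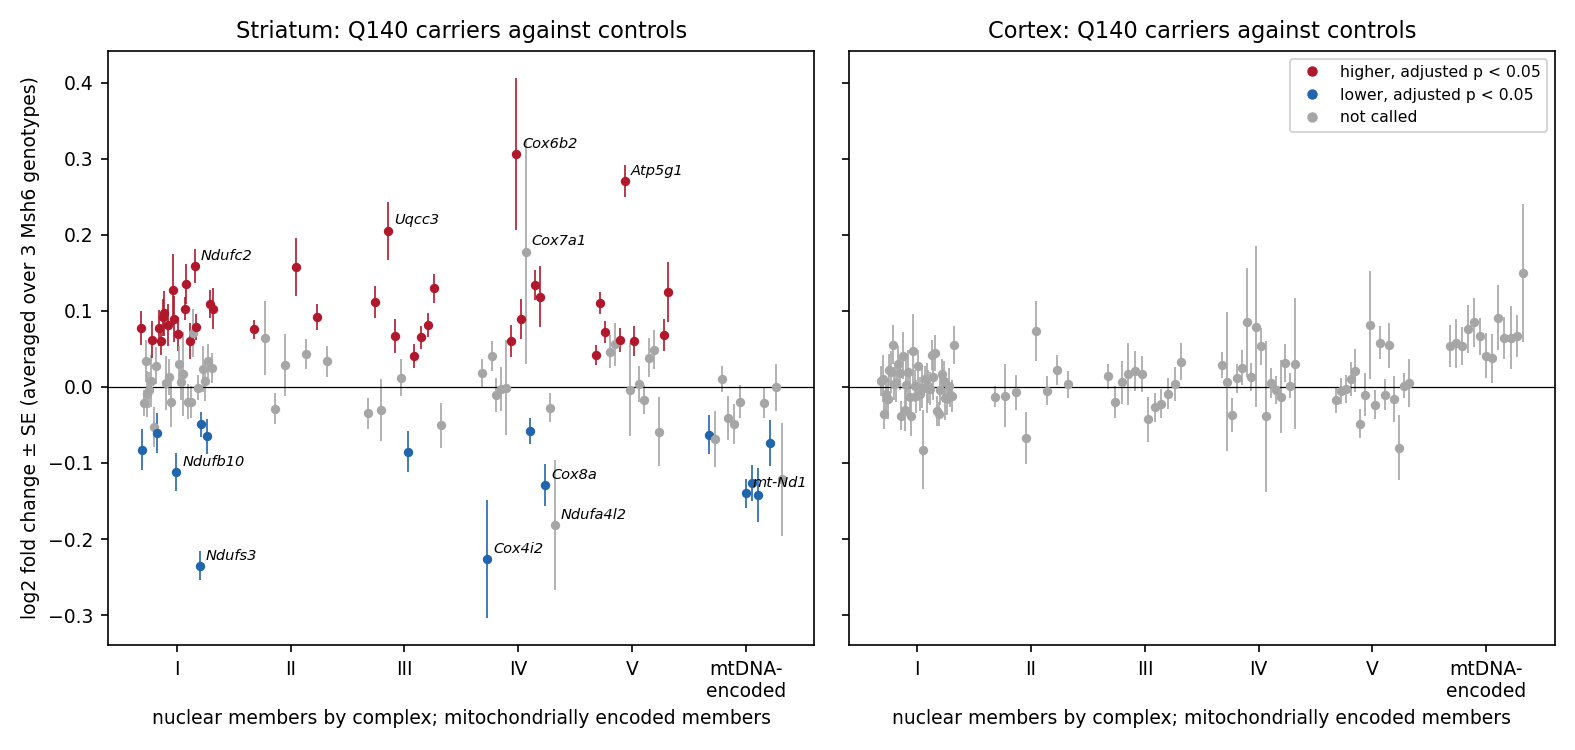
Log2 fold change (± SE, edgeR) of each tested respiratory gene in Q140 mice against controls of the same Msh6 genotypes, averaged over the 3 Msh6 genotypes (24 mice against 24), by complex, in striatum (left) and cortex (right). In striatum 40 nuclear members were called higher (red) and 10 lower (blue), and 5 of 13 mitochondrially encoded members were called lower; in cortex no member was called.

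Atp5g1, a gene for the c subunit of the ATP synthase rotor (chromosome 11, 96068852 to 96075670, minus strand, GRCm38), showed the clearest rise. It had 39.5, 42.0 and 45.7 CPM (TMM-scaled counts, relative to library size; lowest, median and highest of 8 mice) in Q140 striatum, against 31.7, 33.5 and 37.1 CPM in WT striatum. In Q140 Msh6+/- striatum it had 37.6, 40.5 and 44.0 CPM, against 32.7, 34.9 and 37.0 CPM in Msh6+/- striatum. In Q140 Msh6-/- striatum it had 39.8, 41.8 and 46.5 CPM, against 32.4, 34.9 and 37.9 CPM in Msh6-/- striatum. The groups did not overlap in any pair, and 23 of all 24 Q140 carriers lay above every mouse without Q140. The log2 fold changes were 0.32, 0.22 and 0.28 in the 3 pairs (edgeR adjusted p 1.28e-09, 7.49e-06 and 4.09e-08), and 0.27 ± 0.022 (SE) on average (adjusted p 1.8e-15). Relative to Atp5g2 and Atp5g3, which share the scaling between libraries, Atp5g1 also gained: it made up 10.54% of the summed FPKM of the 3 genes in Q140 striatum and 9.07% in WT striatum. The shares were 10.3% against 9.38% in the Msh6+/- pair and 10.6% against 9.02% in the Msh6-/- pair, without overlap in the last (exact permutation test, two-sided, adjusted p 0.0087, 0.0163 and 0.00326 over 21 isoform comparisons). Atp5g1 has a near-identical gene copy, Gm10039 (99.8% identity), and the authors' counting may split reads between them.

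Atp5b, the catalytic beta subunit of ATP synthase, had 932, 983 and 1046 CPM in Q140 striatum, against 874, 904 and 940 CPM in WT striatum, with 7 of 8 Q140 mice above every WT mouse. Its averaged log2 fold change was 0.11 ± 0.014 (edgeR adjusted p 4.4e-09). For the averaged effect, 29.1% of all genes were higher and 23.6% lower, which is the background for the counts by complex. No ATP synthase gene fell: 8 of 16 rose, among them Atp5c1, the central-stalk gamma subunit, at 0.072 ± 0.014, and Atp5s, known from bovine mitochondria as coupling factor B, at 0.12 ± 0.040. In complex II 3 of 8 rose: the flavoprotein Sdha (0.076 ± 0.013), the membrane anchor Sdhc (0.092 ± 0.018) and the assembly factor Sdhaf4 (0.16 ± 0.038). Sdha had 367, 382 and 406 CPM in Q140 striatum, against 345, 364 and 385 CPM in WT striatum, so the groups overlapped although every pair was called. Sdha and Uqcrh each overlap 1 gene on the other strand, as Ndufb5 does. In complex III 7 of 12 rose and 1 fell. Uqcrh, the acidic hinge protein beside cytochrome c1, rose by 0.13 ± 0.019 and did not overlap between Q140 Msh6+/- striatum (82.7 to 100.9 CPM) and Msh6+/- striatum (75.7 to 81.1 CPM). The assembly factors of cytochrome b, Uqcc3 and Uqcc1, rose by 0.21 ± 0.038 and 0.11 ± 0.021. The core proteins Uqcrc2 and Uqcrc1 and the Rieske iron-sulfur protein Uqcrfs1 rose by 0.065, 0.041 and 0.082 on the log2 scale, and Uqcrb, the ubiquinone-binding protein, fell by 0.085 on the log2 scale.

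Complex I was mixed, with 17 of 44 genes higher and 6 lower for the averaged effect (all genes 29.1% higher and 23.6% lower). The accessory membrane-arm subunits Ndufc2 (0.16 ± 0.023), Ndufb6 (0.14 ± 0.026) and Ndufb5 (0.10 ± 0.015) rose, as did Ndufv1, which carries the NADH site (0.11 ± 0.018). Ndufc2 had 56.4, 57.6 and 60.5 CPM in Q140 striatum, against 45.2, 50.8 and 56.6 CPM in WT striatum, and 7 of 8 Q140 mice lay above every WT mouse. It had 51.6, 56.9 and 66.5 CPM in Q140 Msh6+/- striatum, against 48.9, 50.5 and 54.2 CPM in Msh6+/- striatum, and 52.7, 57.4 and 60.3 CPM in Q140 Msh6-/- striatum, against 48.8, 52.7 and 57.4 CPM in Msh6-/- striatum. Ndufs1, the largest core subunit with several iron-sulfur clusters, rose by 0.079 ± 0.017, and Ndufab1, the mitochondrial acyl carrier protein, by 0.091 on the log2 scale. The assembly factors Ndufaf6 (0.13), Ndufaf1 (0.097), Ndufaf7 (0.090) and Ndufaf3 (0.081) rose as well. Besides Ndufs3, the accessory subunits Ndufb10 (-0.11 ± 0.025), Ndufa1 (-0.083 ± 0.027) and Ndufa7 (-0.061) and the matrix-arm subunits Ndufs7 (-0.065) and Ndufs4 (-0.049) fell, although Ndufa7, Ndufs7 and Ndufs4 had the other sign on the FPKM scale. Ndufb5 did not overlap in the Msh6+/- pair, where 70.3 to 79.5 CPM in Q140 Msh6+/- striatum stood against 65.5 to 69.6 CPM in Msh6+/- striatum. In complex IV 5 of 16 rose and 3 fell, which is near the shares of all genes. Cox7b, an X-linked accessory subunit, rose in every pair (0.13 ± 0.020 on average). It had 90.6, 92.6 and 99.9 CPM in Q140 striatum, against 80.8, 87.2 and 92.8 CPM in WT striatum, with 4 of 8 Q140 mice above every WT mouse. Cox8a fell by 0.13 on the log2 scale, with 152, 167 and 177 CPM in Q140 striatum against 155, 185 and 211 CPM in WT striatum, groups that overlapped. The minor isoforms moved apart: Cox6b2 rose (0.31 ± 0.10, edgeR adjusted p 0.0087) and Cox4i2 fell by 0.23 on the log2 scale (adjusted p 0.012), both of them genes of low level. Of the 16 assembly factors over complexes I to III, 8 rose and none fell, against 31 and 10 of the 78 subunits; that difference was not tested.

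Ndufs3, a core subunit of the matrix arm of complex I (chromosome 2, 90894634 to 90904827, minus strand), was the nuclear member with the smallest p among those that fell. It had 55.8, 57.0 and 61.2 CPM in Q140 striatum, against 60.8, 65.4 and 69.7 CPM in WT striatum. In Q140 Msh6+/- striatum it had 52.8, 56.4 and 67.0 CPM, against 61.4, 67.7 and 70.8 CPM in Msh6+/- striatum. In Q140 Msh6-/- striatum it had 53.2, 56.5 and 59.7 CPM, against 64.5, 68.9 and 75.01 CPM in Msh6-/- striatum. Of the 8 carriers, 7, 7 and 8 lay below every control of their pair, and over all genotypes 22 of 24 Q140 mice lay below every mouse without Q140. The log2 fold changes were -0.18, -0.22 and -0.30 (edgeR adjusted p 1.54e-05, 3.22e-07 and 2.81e-10), with an average of -0.24 ± 0.019 (adjusted p 3.4e-15). Ndufs3 has a near-identical copy in Gm12251 (98.6% identity) and overlaps 1 gene on the other strand, and whether counting used the strand of the libraries is not given in the sources used here.

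**Figure D2:**
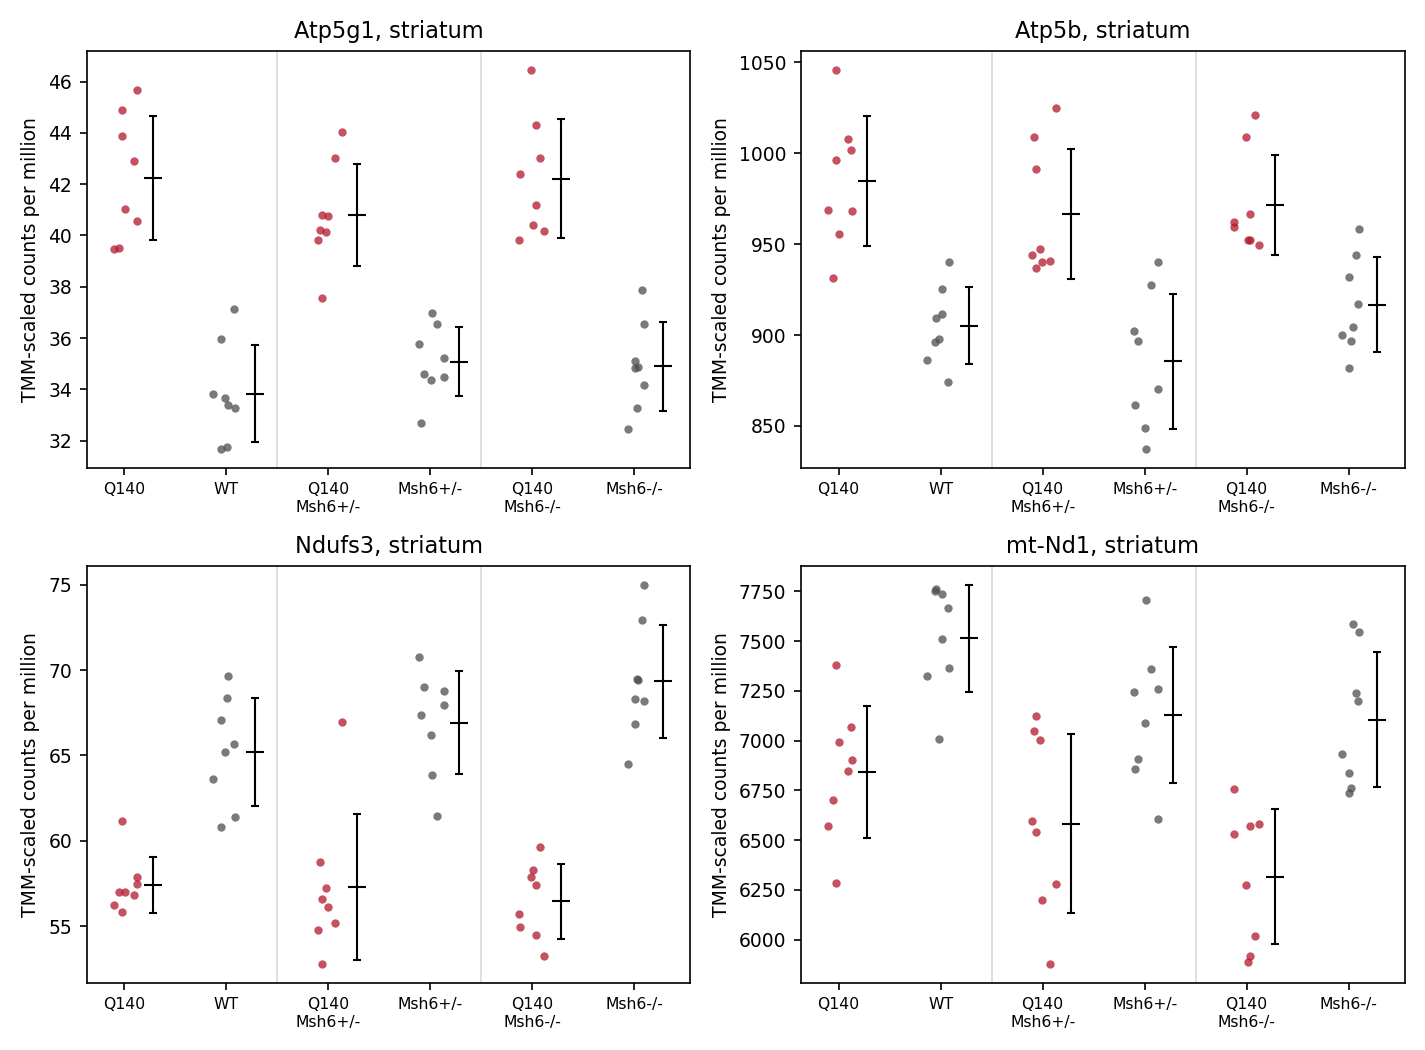
TMM-scaled CPM of Atp5g1, Atp5b, Ndufs3 and mt-Nd1 in each of 48 striata, by genotype, with Q140 carriers in red left of their controls in grey; bars give the group mean ± SD (n = 8). Axes do not start at 0. The Atp5g1 groups do not overlap in any pair, and Ndufs3 and mt-Nd1 lie lower in each Q140 group.

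Among the 13 mitochondrial members none was called higher in Q140 striatum with edgeR, although 2 were on FPKM. mt-Nd1, the complex I subunit that lines the quinone channel, fell in every pair, with 6283, 6874 and 7378 CPM in Q140 striatum against 7006, 7587 and 7763 CPM in WT striatum. In Q140 Msh6+/- striatum it had 5879, 6566 and 7126 CPM, against 6606, 7166 and 7708 CPM in Msh6+/- striatum. In Q140 Msh6-/- striatum it had 5888, 6403 and 6756 CPM, against 6737, 7066 and 7588 CPM in Msh6-/- striatum. The ranges overlapped in each pair, and 14 of 24 Q140 mice lay below every mouse without Q140. Its log2 fold changes were -0.13, -0.12 and -0.17 (edgeR adjusted p 0.00163, 0.00662 and 6.97e-05). On FPKM no mitochondrial member was called lower in Q140 against WT or in the Msh6+/- pair. With the effect averaged, 5 of 13 were called lower (all genes 23.6%), mt-Nd1 (-0.14 ± 0.020), mt-Nd3 (-0.14 ± 0.036), mt-Nd2 (-0.13 ± 0.024), mt-Nd4l (-0.074 ± 0.031) and mt-Atp6 (-0.063 ± 0.026), and the median was -0.063; without striatal mouse 21-3 the count was 3. mt-Nd2 had 4539, 5148 and 5549 CPM in Q140 striatum, against 5215, 5700 and 6078 CPM in WT striatum, so the groups overlapped (edgeR adjusted p 0.00746). By pair the calls were 3 (mt-Nd1, mt-Nd2 and mt-Nd6), 1 (mt-Nd1) and 3 (mt-Nd1, mt-Nd2 and mt-Nd3), against 14.2%, 14.9% and 15.2% of all genes. mt-Nd6 overlaps mt-Nd5 on the other strand. The genes at the other end of the polycistronic transcript, mt-Cytb (-0.019 ± 0.022) and mt-Nd5 (-0.00068 ± 0.031), and mt-Co1 (0.010 ± 0.017) were not called. The mitochondrial rRNAs, transcribed just before mt-Nd1, had averaged log2 fold changes of -0.11 (mt-Rnr1) and -0.091 (mt-Rnr2; edgeR adjusted p 0.014 and 0.030), but by pair they were called lower in Q140 against WT only. Their share of all counts was 0.680% in Q140 and 0.747% in WT striatum, 0.747% in Q140 Msh6+/- and 0.728% in Msh6+/- striatum, and 0.719% in Q140 Msh6-/- and 0.716% in Msh6-/- striatum, so its direction differed between pairs and none passed (exact permutation adjusted p 0.0582, 0.763 and 0.924).

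Shares within the 13 mitochondrial mRNAs do not depend on how libraries are scaled to each other. They are parts of a whole, so a lower share of some genes raises the share of others. A larger share thus need not be a higher level, and edgeR did not call mt-Co1 in Q140 striatum. mt-Nd1 took 12.58% ± 0.258 of these counts in Q140 striatum and 13.26% ± 0.343 in WT striatum (SD, n = 8 each). It took 12.21% ± 0.274 in Q140 Msh6+/- and 13.20% ± 0.272 in Msh6+/- striatum, and 11.91% ± 0.243 in Q140 Msh6-/- and 13.06% ± 0.523 in Msh6-/- striatum. The groups did not overlap in the Msh6+/- and Msh6-/- pairs, and 7 of 8 Q140 mice lay below every WT mouse (exact permutation test, two-sided, adjusted p 0.00404, 0.00303 and 0.00303 over 39 comparisons). mt-Co1 took more: 35.65% in Q140 and 34.59% in WT striatum, 35.84% in Q140 Msh6+/- and 34.82% in Msh6+/- striatum, and 36.26% in Q140 Msh6-/- and 35.06% in Msh6-/- striatum (exact permutation adjusted p 0.0485, 0.0465 and 0.0465). mt-Nd2 took 9.003% in Q140 Msh6-/- and 9.85% in Msh6-/- striatum (exact permutation adjusted p 0.0152), and no other gene's share passed the threshold. In cortex no share passed in any pair.

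**Figure D3:**
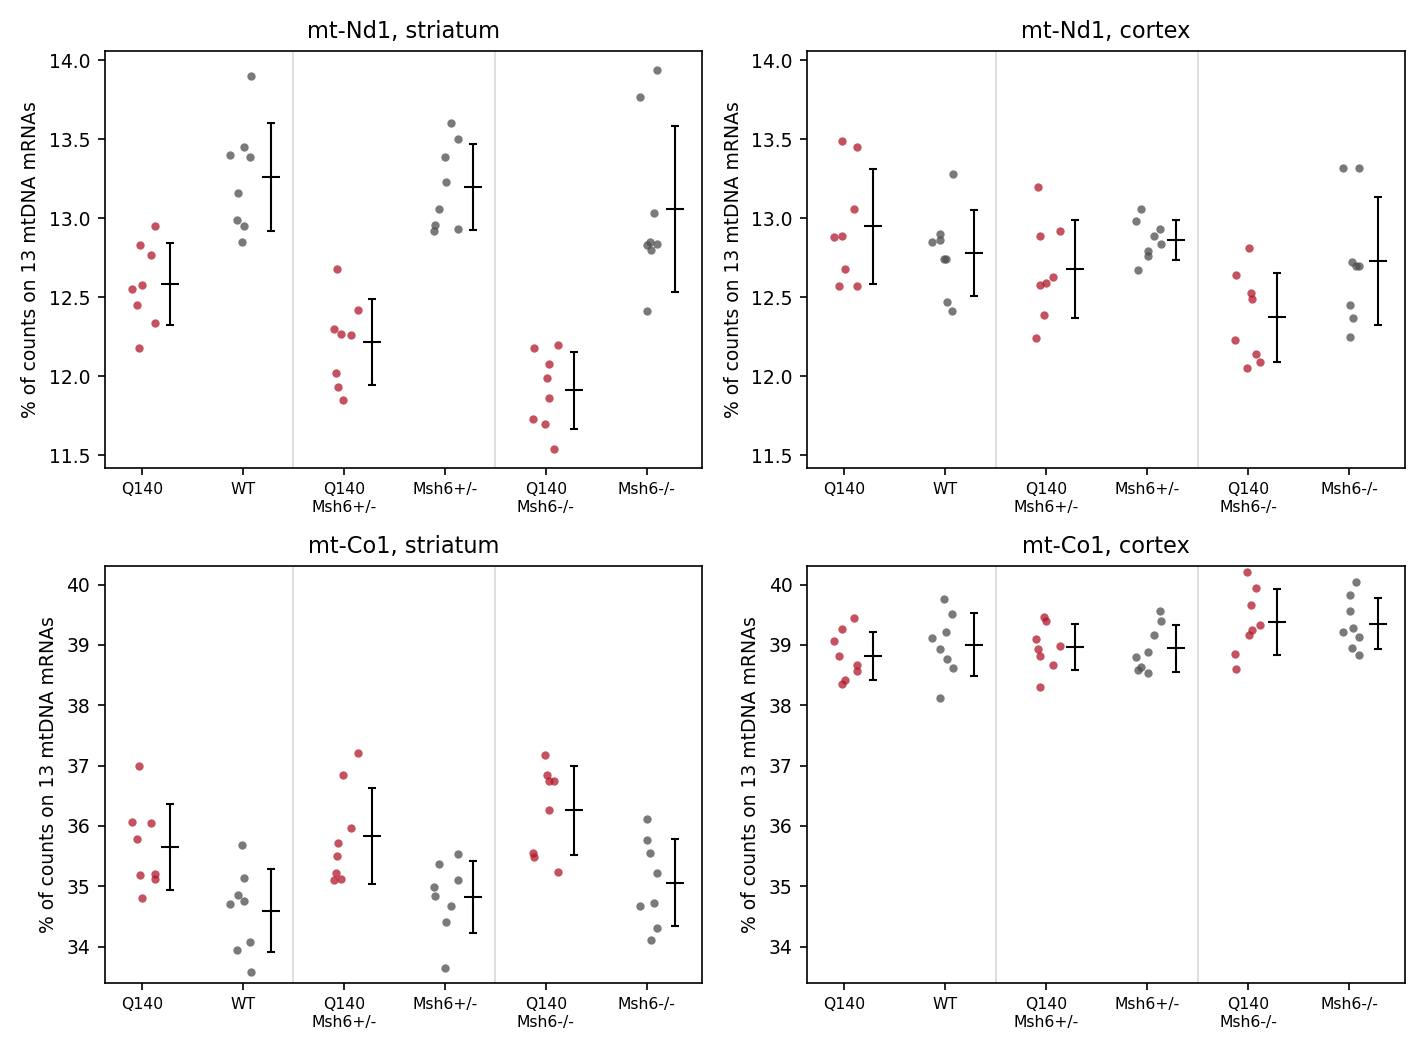
Share of mt-Nd1 (top) and mt-Co1 (bottom) among the counts of the 13 mitochondrially encoded mRNAs, in percent, for each mouse in striatum (left) and cortex (right), with Q140 carriers in red left of their controls in grey and the mean ± SD (n = 8). Axes do not start at 0. In striatum mt-Nd1 lies lower and mt-Co1 higher in each Q140 group, and in cortex the groups overlap.

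As a share of all counts of a library, the 99 nuclear members together made up 0.8033% ± 0.0182 in Q140 striatum and 0.7407% ± 0.0218 in WT striatum. They made up 0.8031% ± 0.0384 in Q140 Msh6+/- and 0.7357% ± 0.0135 in Msh6+/- striatum, and 0.8019% ± 0.0134 in Q140 Msh6-/- and 0.7534% ± 0.0130 in Msh6-/- striatum. The last 2 pairs did not overlap (exact permutation test, two-sided, adjusted p 0.00249, 0.000932 and 0.000932 over 12 comparisons; 0.000155 is the smallest unadjusted p that 8 against 8 allows). These shares rest on raw library totals without TMM factors, so a shift common to many genes would move them as well. How much of the rise was particular to the nuclear members was not tested. The 13 mitochondrial mRNAs made up 5.56% in Q140 and 5.52% in WT striatum, 5.52% and 5.29% in the Msh6+/- pair and 5.42% and 5.30% in the Msh6-/- pair, with no pair past the threshold. A nuclear count was thus matched by 6.93 mitochondrial counts in Q140 and 7.45 in WT striatum (exact permutation adjusted p 0.0112). This ratio was 6.89 and 7.20 in the Msh6+/- pair and 6.77 and 7.03 in the Msh6-/- pair, which did not pass. The count of calls differed by measure: on the authors' FPKM, limma called 70 nuclear members higher and 1 lower for the averaged effect, with a median over all genes of 0.078. Scaling, measure and test differ at once between these analyses, so which of them moved the count was not tested; median TMM factors were 1.025 in Q140 striata and 0.972 in WT striata. For the averaged effect on FPKM, Ndufs3 and mt-Nd1 kept their lower call, mt-Co1 was higher (0.080), and Cox7a2, Ndufs4, Ndufs7, Ndufa7 and mt-Atp6 changed sign. By pair, mt-Nd1 was not called on FPKM in Q140 against WT or in the Msh6+/- pair.

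**Figure D4:**
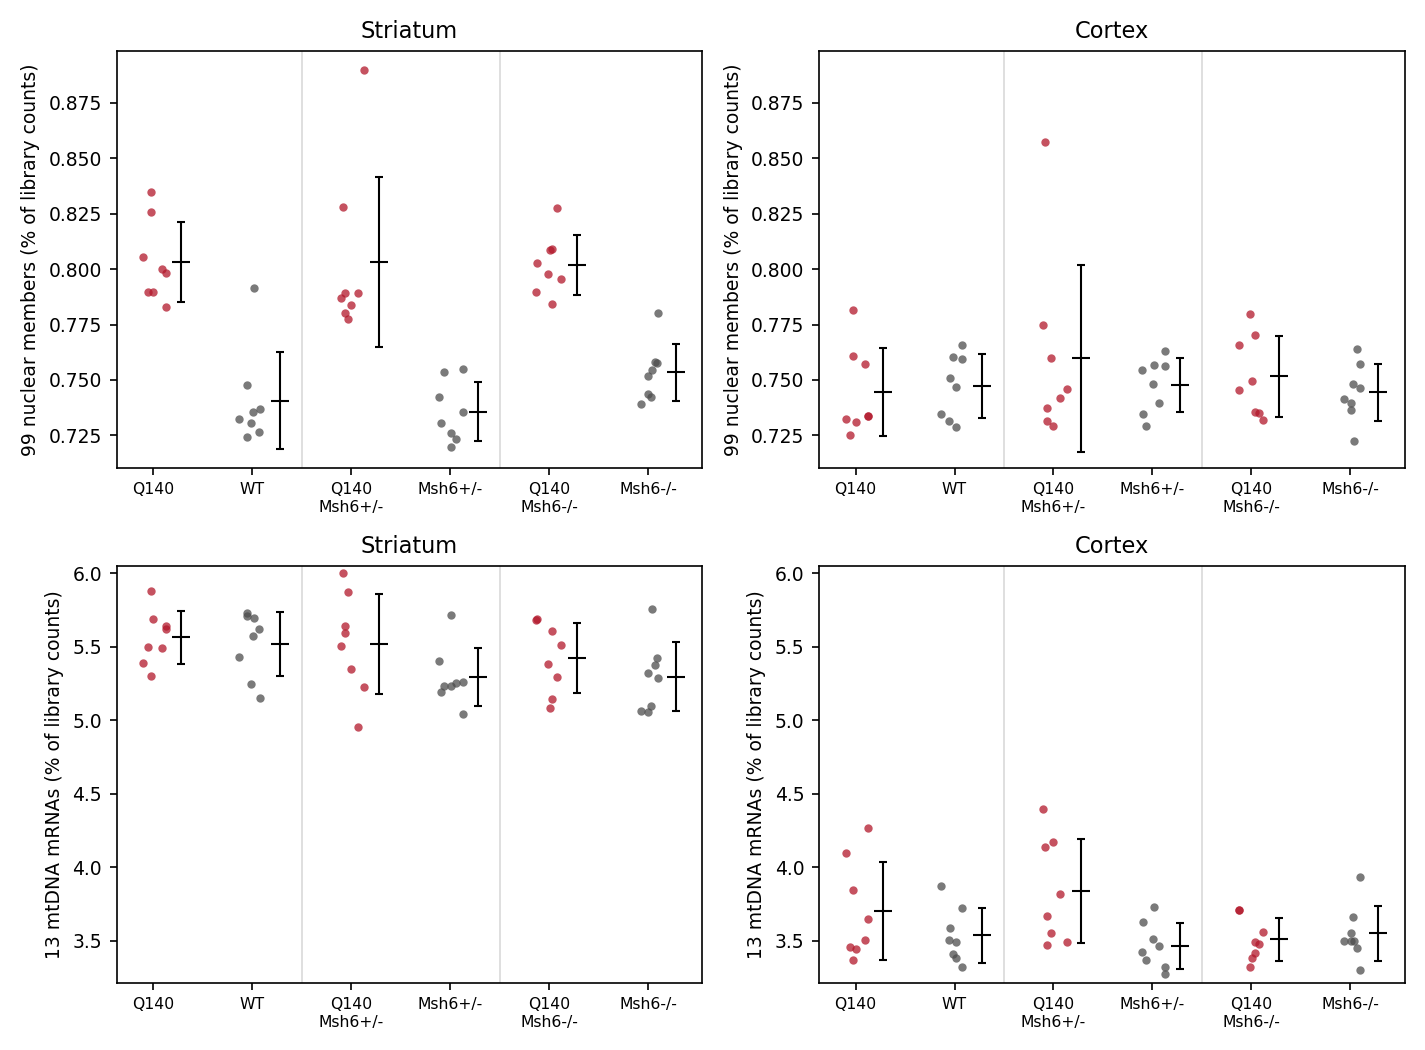
Percent of all counts of a library on the 99 nuclear (top) and the 13 mitochondrially encoded (bottom) respiratory genes for each mouse, in striatum (left) and cortex (right), with Q140 carriers in red left of their controls in grey and the mean ± SD (n = 8). Axes do not start at 0. The nuclear share is higher in each Q140 group of the striatum, where the highest point of the Q140 Msh6+/- group is mouse 26-4 with 0.890%, and the mitochondrial share is higher in striatum than in cortex.

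Markers of several cell types moved in the same striata. For striatal projection neurons 9 of 10 fell and 1 rose, and the summed level was 7417 to 8254 CPM over Q140 carriers and 11630 to 14780 CPM over mice without Q140. Marker lists of glia and vessels were lower as well: 6 of 6 microglial, 6 of 6 endothelial, 5 of 6 astrocyte, 4 of 6 oligodendrocyte and 8 of 11 pericyte and smooth muscle genes fell and none rose. Cortical glutamatergic neuron markers, low in striatum, went the other way, with 3 of 6 higher and 1 lower and a summed level of 20.14 to 37.57 CPM over Q140 carriers and 16.48 to 26.09 CPM over mice without Q140. Of the parvalbumin interneuron markers, a list that shares Tac1 with that of projection neurons, 3 of 6 fell and 1 rose. Of the choroid plexus markers 3 of 5 rose. Choroid plexus sums included the 1 library of 2795 CPM, mouse 21-3. Their group medians were 36.1 CPM in Q140 and 32.4 CPM in WT striatum. The medians were 41.8 and 43.0 CPM in the Msh6+/- pair and 43.3 and 34.1 CPM in the Msh6-/- pair. Summed pericyte and smooth muscle markers were 209.2 to 242.7 CPM over Q140 carriers and 238.6 to 286.4 CPM over mice without Q140. Cox4i2 and Ndufa4l2, both known from brain pericytes, had log2 fold changes of -0.23 and -0.18 (edgeR adjusted p 0.012 and 0.068). No marker of these lists was at 0 in all libraries, and their part in the respiratory gene results was not tested. Without mouse 26-4, whose nuclear share of 0.890% stood apart, the Msh6+/- pair had 19 nuclear members higher and 3 lower.

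In cortex no respiratory gene was called in Q140 mice. This held for Q140 against WT (edgeR; 0.017% of all genes called), for the Msh6+/- pair (0.193%), for the Msh6-/- pair (0.136%) and for the averaged effect (1.54%). At an unadjusted p under 0.05 there were 1, 16, 2 and 7 nuclear and 0, 9, 0 and 7 mitochondrial members in these comparisons, against 6.13%, 11.9%, 5.36% and 13.9% of all genes. All 13 mitochondrial members had positive averaged log2 fold changes, between 0.038 and 0.15, and the smallest edgeR adjusted p was 0.175 (Atp5h and mt-Cytb). By pair, mt-Nd1, mt-Nd2, mt-Nd4, mt-Nd5, mt-Cytb, mt-Co1 and mt-Atp6 were positive in only 2 of the 3 pairs. In the Msh6-/- pair the mitochondrial share of counts was 3.508% in Q140 Msh6-/- and 3.548% in Msh6-/- cortex (exact permutation adjusted p 0.755). DESeq2 called 5 mitochondrial members higher in Q140 Msh6+/- against Msh6+/- cortex, mt-Co1, mt-Co3, mt-Cytb, mt-Nd4 and mt-Nd5, and no member in the other cortical comparisons of Q140. The mitochondrial share of counts was 3.84% ± 0.354 in Q140 Msh6+/- and 3.46% ± 0.155 in Msh6+/- cortex (exact permutation test, adjusted p 0.0848), and the mitochondrial rRNA share was 0.663% and 0.577% (exact permutation adjusted p 0.0131). Atp5g1 had 35.7, 38.0 and 43.4 CPM in Q140 cortex and 36.2, 39.6 and 44.3 CPM in WT cortex, and Ndufs3 had 51.8, 52.2 and 56.6 CPM in Q140 and 50.3, 52.9 and 56.7 CPM in WT cortex, so both overlapped almost fully.

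The Q140 effect differed between the tissues for 31 nuclear members, 27 with a higher and 4 with a lower fold change in striatum than in cortex, and for 10 mitochondrial members, all lower (edgeR interaction; all genes 21.4% higher and 16.2% lower). The smallest adjusted p belonged to Ndufs3, with a difference of -0.23 ± 0.028 between its log2 fold changes, and Atp5g1, with 0.29 ± 0.036 (edgeR adjusted p 6.2e-11 and 1.4e-10). Atp5b, Cox7b and Sdha followed with 0.12 ± 0.023, 0.14 ± 0.027 and 0.093 ± 0.018, and mt-Nd1 with -0.18 ± 0.036. These counts were unsteady: nuclear members higher numbered 17 with totals without mitochondrial genes, 15 without a filter and 52 on FPKM, where 2 were lower and 3 mitochondrial members were lower. Nuclear members lower numbered 9 with RLE factors, DESeq2 or no filter, and 10 with totals without mitochondrial genes. With both tissues of a mouse left out they numbered 14 without 26-4, 11 without 21-3 and 10 without 15-1. With the animal as a block it was 29 nuclear members higher and 5 lower, and 10 mitochondrial members lower. The shares of all genes above belong to the main fit, not to these alternatives. In the main fit mt-Co2, mt-Co3, mt-Cytb, mt-Nd4 and mt-Atp8 differed between tissues without being called lower in striatum for the averaged effect. The averaged cortical values of all mitochondrial members were positive and not called.

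Loss of Msh6 alleles moved no respiratory gene past the threshold. No member was called by edgeR in Msh6-/- against WT (all genes 0.0971% called in striatum, 0.131% in cortex), in Msh6+/- against WT (0.0114% and 0.00567%), in Q140 Msh6-/- against Q140 (0.177% and 0.153%) or in Q140 Msh6+/- against Q140 (0.00571% and 0.0113%). DESeq2 called none either. At an unadjusted p under 0.05, Msh6-/- against WT had 6 nuclear and 2 mitochondrial members in striatum (all genes 6.4%) and 1 and 0 in cortex (3.34%), and Q140 Msh6-/- against Q140 had 2 and 2 in striatum (5.47%) and 4 and 2 in cortex (6.95%). Msh6+/- against WT had 6 and 5 in striatum (5.67%) and 1 and 0 in cortex (3.3%), and Q140 Msh6+/- against Q140 had 1 and 0 in striatum (4.3%) and 17 and 2 in cortex (7.88%). The smallest of these in Q140 Msh6-/- against Q140 striatum was mt-Nd1, with a log2 fold change of -0.12 ± 0.034 and an edgeR adjusted p of 0.338. Cox7a2l, a factor for supercomplex assembly, and Ndufaf7, a methyltransferase for complex I assembly, lie 4.46 and 9.03 Mb from Msh6 on chromosome 17 and were not called either. No member's Q140 effect was called as different between Msh6 genotypes: for the Msh6-/- and the Msh6+/- interaction edgeR called 0.0% of all genes in striatum and in cortex. At an unadjusted p under 0.05 the Msh6-/- interaction had 3 nuclear and 0 mitochondrial members in striatum (all genes 5.0%) and 2 and 1 in cortex (3.93%), and the Msh6+/- interaction 5 and 0 in striatum (4.78%) and 11 and 0 in cortex (5.17%). For Atp5g1 the difference between the Q140 effect in Msh6-/- and in Msh6+/+ striatum was -0.044 ± 0.053, and for Ndufs3 it was -0.11 ± 0.047 (edgeR adjusted p 0.998 and 0.965), so a difference of such a size is not excluded.

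Between the sexes 7 members were called in striatum, 3 higher and 4 lower in males, which is near the shares of all genes (edgeR, 2.43% higher and 3.11% lower). mt-Nd2 had 4166, 5066 and 5880 CPM (lowest, median and highest of 24) in male striatum, against 4903, 5346 and 6078 CPM in female striatum, and fell by 0.11 on the log2 scale (edgeR adjusted p 0.0025). mt-Nd6 fell by 0.27, Uqcrb by 0.094 and the assembly factor Ndufaf4 by 0.081 on the log2 scale. The complex III core protein Uqcrc1 had 147.9, 164.1 and 174.7 CPM in male striatum, against 141.0, 155.0 and 170.8 CPM in female striatum, a log2 fold change of 0.067 ± 0.016, and Cox7a2l (0.077 ± 0.020) and Ndufb9 (0.071 ± 0.021) were higher too. The male and female ranges overlapped for both genes. In cortex none was called (edgeR; 6.31% of all genes called, and 8 nuclear and 3 mitochondrial members at an unadjusted p under 0.05, against 20.9% of all genes), and DESeq2 called none either. The X-linked members Ndufa1, Ndufb11 and Cox7b were not called in either tissue, and their log2 fold changes lay between -0.052 and 0.021.

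Striatum and cortex differed far more than the genotypes did. All 13 mitochondrial members were higher in striatum, with log2 fold changes between 0.43 (mt-Co1) and 0.81 (mt-Nd3), whereas nuclear members split evenly, 39 higher and 39 lower of 96 (edgeR; all genes 45.2% higher and 41.9% lower). All 48 mice had the higher level in striatum for every mitochondrial member except mt-Nd6, where 40 did. The mitochondrial mRNAs took 5.44% ± 0.253 of counts in striatum and 3.60% ± 0.263 in cortex, higher in striatum in 48 of 48 mice. A nuclear count was matched by 7.04 mitochondrial counts in striatum and 4.81 in cortex, again in 48 of 48. Within the mitochondrial mRNAs mt-Co1 took 3.71 percentage points less in striatum than in cortex, and mt-Cytb and mt-Nd4 took 2.24 and 1.07 points more, in all 48 mice each.

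Among nuclear members the widest tissue differences were in isoforms of cytochrome c oxidase. Cox7a1, the heart and muscle isoform, was lower in striatum by a log2 fold change of -1.28 ± 0.085, with 0.816 FPKM in striatum and 1.95 FPKM in cortex. Cox6a2, the muscle isoform known in brain from parvalbumin interneurons, was lower by -0.76 ± 0.049, with 4.78 FPKM in striatum and 7.99 FPKM in cortex. Cox4i2 was higher by 1.07 ± 0.059 in 48 of 48 mice, with 3.08 FPKM in striatum and 1.44 FPKM in cortex, and Cox6b2 by 0.66 ± 0.073 in 44 of 48. As a share of the summed FPKM of its isoforms, Cox4i2 made up 1.671% in striatum and 0.795% in cortex, Cox6a2 1.837% and 2.95%, and Cox7a1 0.914% and 1.908%. Markers moved alongside: 5 of 6 parvalbumin interneuron genes were lower in striatum. The 1 higher gene was Tac1, which is also on the list of striatal projection neuron markers. Of the pericyte and smooth muscle genes 8 of 11 were higher and 2 lower. The part of these markers was not tested. Cox8a, the most abundant nuclear member, was lower in striatum in all 48 mice (-0.49 ± 0.019), as was the complex I subunit Ndufa10 (-0.18 ± 0.013), and Sdhaf3, an assembly factor of complex II, was lower in striatum by -0.33 in 46 of 48. Ndufaf2 (-0.25), Uqcc2 (-0.24), Cox7a2 (-0.21) and Ndufb6 (-0.20) were lower in striatum too. The c-subunit gene Atp5g2 was higher (0.53 ± 0.046) in 46 of 48 mice. Of the nuclear members chosen after their values were seen, Ndufa1 (0.47 ± 0.020), Ndufb10 (0.43 ± 0.017) and Uqcrb (0.38 ± 0.021) were higher in striatum in 48 of 48 mice.

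**Figure D5:**
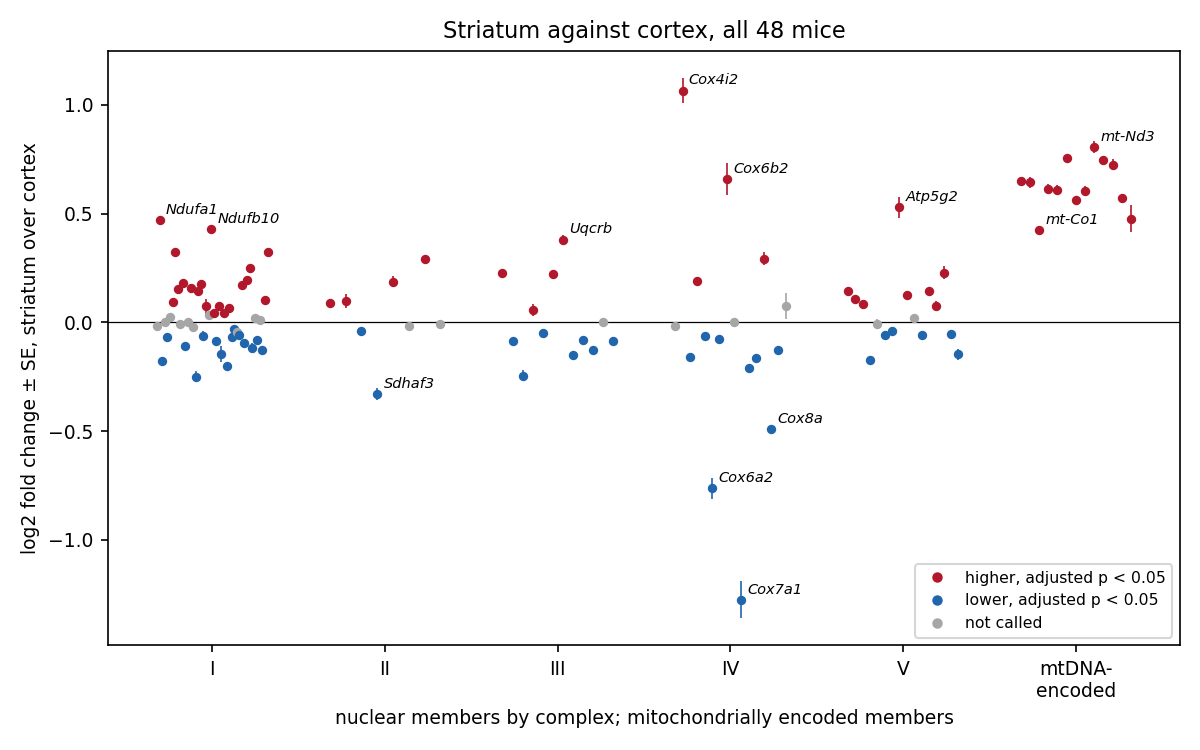
Log2 fold change (± SE, edgeR) of each tested respiratory gene in striatum over cortex, across all 48 mice, by complex. All 13 mitochondrially encoded members lie between 0.43 and 0.81, while nuclear members spread on both sides of 0 between -1.28 (Cox7a1) and 1.07 (Cox4i2).

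Other mitochondrial gene lists were read beside the members for the averaged Q140 effect in striatum, where 29.1% of all genes were higher and 23.6% lower. Assembly factors of complexes I and V outside the name rule had 7 higher and 1 lower of 13, led by Acad9 (0.17 ± 0.021) and with Atpaf1 as the lower one (-0.19 ± 0.034). Assembly factors of cytochrome oxidase and complex III had 5 and 3 of 22, among them the copper chaperone Sco2 (0.34 ± 0.069) and Ttc19 (-0.13 ± 0.025). Electron carriers and coenzyme Q synthesis had 6 and 1 of 14, with Pdss1, which makes the isoprenoid tail, at 0.25 ± 0.032. Proteins of the mitochondrial ribosome had 25 and 5 of 81 (median 0.037), and mtDNA maintenance and expression 5 and 3 of 20, with the mRNA-stabilising Lrpprc at 0.13 ± 0.016 and the RNA-binding Grsf1 at -0.10 ± 0.020. In the tricarboxylic acid cycle and pyruvate dehydrogenase 8 rose and 3 fell of 19, with Idh3a at 0.20 ± 0.015 and Pdha1 at 0.17 ± 0.014. Glycolysis had 8 and 5 of 19, with neuronal glucose transporter Slc2a3 at 0.15 ± 0.018 and enolases Eno1 (-0.19 ± 0.018) and Eno2 (-0.12 ± 0.015). Regulators of mitochondrial biogenesis had 3 and 4 of 17, where the coactivator Ppargc1b (-0.37 ± 0.041) and the nuclear receptor Esrra (-0.16 ± 0.032) fell and the deacetylases Sirt3 (0.12 ± 0.028) and Sirt1 (0.12 ± 0.033) rose. The cytosolic ribosomal protein genes, added as a comparison after the data were seen, had 13 and 3 of 82. In cortex these lists together gave 2 calls, 1 assembly factor and 1 mitochondrial ribosomal protein, both higher.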

How the data were processed

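Gene counts and FPKM for 96 libraries were used as deposited by the authors. Per the labels' protocols, total RNA was extracted with RNeasy columns and made into TruSeq stranded libraries; the submitters' processing notes name STAR 2.7.5c, SAMtools 1.10, HTSeq 0.12.3 and mm10, and the strand setting of counting is not given in the sources used here. Members and gene lists were chosen with earlier results of these data known.

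Counts were fitted per tissue with edgeR 4.0.16 (R 4.3.3; filterByExpr with a minimum count of 10, TMM factors, quasi-likelihood test, genotype and sex as terms, 48 libraries), and across tissues in 1 fit of 96 libraries. P-values were adjusted over all genes tested (17503 in striatum, 17622 in cortex, 18440 jointly) by Benjamini-Hochberg, with a threshold of 0.05. The scripts were tested on simulated data. Values in CPM are counts scaled by TMM. The authors' FPKM was tested on log2(FPKM + 0.1) with limma 3.58.1. Shares were compared by exact permutation tests. Alternatives were RLE factors, library totals without mitochondrial genes, no filter, DESeq2 1.42.0, FPKM, another pseudocount, the animal number's prefix as a term, the compared groups alone, left-out libraries and the animal as a block.

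Named members were the mitochondrial ones, the 10 nuclear members of smallest adjusted p in each striatal Q140 pair and those called in all 3 pairs, up to 10 for the difference between tissues, up to 5 for sex and Msh6, the 8 largest differences each way between tissues at a mean log2 CPM of at least 1 (the higher ones are all mitochondrial), the alternative isoforms and 2 genes per direction of each list; members named beyond these, to show each complex, were chosen after their values were seen. Both tissues of a mouse carry its number in the labels, so the block pairs them by animal; deviations from the group means correlated between the tissues of a mouse with a median of 0.102 over members and 0.169 over all genes. Of the 99 nuclear members 25, and of the 13 mitochondrial 7, have a near-identical stretch in another gene. The symbol mt-Cyb of the choice rule was taken as mt-Cytb.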

Additional observations from a re-analysis of the deposited data

Results flagged for a closer look

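The Q140 effect differed between striatum and cortex (edgeR interaction) for 19 of the named members. The striatal log2 fold change exceeded the cortical one by 0.285 for Atp5g1, 0.1423 for Cox7b, 0.1366 for Uqcc1, 0.1302 for Uqcrh, 0.123 for Ndufv1, 0.1208 for Atp5b, 0.1144 for Atp5f1 and 0.09344 for Sdha. For Ndufs3 the difference was -0.2271, and for mt-Nd1 it was -0.1768. The other mitochondrial members with a difference were mt-Nd3 (-0.2287), mt-Nd2 (-0.1593), mt-Nd4l (-0.1339), mt-Co3 (-0.1289), mt-Atp8 (-0.1208), mt-Atp6 (-0.1123), mt-Co2 (-0.1118), mt-Cytb (-0.0808) and mt-Nd4 (-0.08076). Of these, mt-Co3, mt-Atp8, mt-Co2, mt-Cytb and mt-Nd4 were not called lower in striatum for the averaged effect. The averaged cortical values of all mitochondrial members were positive and not called.

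A library stood far from the other 7 of its group in 15 of the 156 groups of values examined, and chance flags about 1 in 20. Mouse 26-4 of Q140 Msh6+/- had the highest striatal Ndufs3 level of its group (66.96 CPM) and the highest nuclear share (0.89% of counts). Mouse 15-1 of the same genotype had the highest cortical Ndufc2 (66.36 CPM), Uqcc1 (53.28 CPM) and nuclear share (0.8576%). Among Q140 mice, 24-1 was highest for striatal Ndufs3 (61.18 CPM), and 26-1 was highest for cortical Atp5g1 (43.42 CPM) and Ndufs3 (56.62 CPM). In striatum of mice without Q140, the nuclear share was highest in WT mouse 13-1 (0.7917%) and Msh6-/- mouse 16-3 (0.7803%), and the mitochondrial counts per nuclear count in Msh6+/- mouse 19-2 (7.944) and Msh6-/- mouse 14-3 (7.63). In their cortex, Msh6+/- mouse 19-2 was highest for Ndufb5 (72.57 CPM), Msh6+/- mouse 22-1 lowest for Uqcrh (76.07 CPM) and Msh6-/- mouse 16-3 highest for mt-Nd1 (5296 CPM).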

How the results depend on the processing

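Of the counts of calls under the alternatives, 966 equalled the reported count or stayed within 1.5 times it, and 58 did not. The 966 include counts of 0 that stayed at 0, and many comparisons had no calls. They therefore do not measure how steady the calls were. The cause of the 58 changes was not tested. Shares of all genes are given for the main fit only, so the counts under the alternatives have no such share beside them. On FPKM with either pseudocount the nuclear members called in striatum were 48 higher and 1 lower for Q140 against WT, 58 higher in the Msh6+/- pair, 41 higher and 1 lower in the Msh6-/- pair, and 70 higher and 1 lower for the averaged effect. The mitochondrial calls there were 0 lower for Q140 against WT, 1 higher and 0 lower in the Msh6+/- pair, 1 lower in the Msh6-/- pair (pseudocount 1), and 2 higher (1 with pseudocount 1) and 1 lower for the averaged effect. mt-Atp6 then changed sign, with an averaged log2 fold change of 0.007611 or 0.007601. In the Msh6-/- pair 5 mitochondrial members were lower with DESeq2, RLE factors or the prefix of the animal number as a term, and 5 nuclear members were higher without a filter. With the compared groups alone, 5 mitochondrial members were lower in Q140 against WT and 2 nuclear members in the Msh6+/- pair. With the prefix as a term 3 nuclear members were lower in Q140 against WT. Leaving out mouse 26-4, added after seeing the data, gave 3 nuclear members lower in the Msh6+/- pair, and leaving out 21-3 gave 3 mitochondrial members lower for the averaged effect.

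For the Q140 effect in striatum minus that in cortex, nuclear members higher numbered 52 on FPKM, 17 with totals without mitochondrial genes and 15 without a filter. Those lower numbered 2 on FPKM, 9 with DESeq2, RLE factors or no filter, 10 with totals without mitochondrial genes, and between 10 and 14 with both tissues of a mouse left out (15-1, chosen after seeing the data, 21-3 or 26-4), and 3 mitochondrial members were lower on FPKM. With the animal as a replicate block, 29 nuclear members were higher and 5 lower, and 10 mitochondrial members were lower; the block moved no count by more than 1.5 times. DESeq2 called 5 mitochondrial members higher in Q140 Msh6+/- against Msh6+/- cortex. For sex in striatum, 10 nuclear members were higher and 0 lower on FPKM, and 1 was lower without a filter. For sex in cortex, 1 mitochondrial member was lower without a filter or without 15-1, and 1 nuclear member was higher without 21-3. The named members' values were counted together with the ratios of mitochondrial shares between Q140 carriers and controls. Of these, 1064 kept direction and call, or for a ratio stayed within its spread. Direction alone was kept by 52 values, 2 changed direction, and 2 ratios moved beyond their spread. Reads shared with near-identical copies limit Atp5g1, Ndufs3 and several mitochondrial members at any depth, and Cox7b2, Cox8b and Cox8c were too low to test.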
